A study of Mus musculus with 12 samples.

Results

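The 9 enzymes described here carry one-carbon units through the folate cycle (Mthfd1, Mthfd2, Shmt1, Shmt2 and Tyms), through the methionine cycle (Mtr, Mat2a and Ahcy) and out of it into transsulfuration (Cbs). They were chosen by their place in the pathway, and each was found by its symbol among the 33024 gene symbols of the count table. All 9 were among the 16059 genes that passed the filter on low counts. None of the 9 transcripts passed the test between ethanol-drinking and control mice, and the values of the groups overlapped for each of them. Mat2a lay closest to the threshold, with a mean in the EtOH mice of 0.895 times that of the controls (95% interval 0.823 to 0.973).

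Bulk RNA was sequenced from the cortex of 12 wild-type C57BL/6 mice. The EtOH group (5 mice) had been offered a bottle of diluted ethanol beside a bottle of water each night for several weeks of adolescence, was then kept without ethanol, and was killed after behavioural tests. The Control group (7 mice) had received water, the vehicle, in both bottles and went through the same schedule. The sources used here give no sex for the mice, and no litter, cage or dissection batch that could be set against the groups.

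The folate cycle moves single carbons, taken mainly from serine, on the carrier tetrahydrofolate, and it runs in parallel in the cytosol and in mitochondria. The carbons are used to make purines and thymidylate and to turn homocysteine back into methionine. Methionine is then activated to S-adenosylmethionine, the methyl donor of most cellular methylation, which leaves S-adenosylhomocysteine and, after hydrolysis, homocysteine. Homocysteine that is not remethylated can enter transsulfuration, which makes cysteine.

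Total counts ran from 31768079 to 40690226 in the Control mice and from 32048725 to 42183031 in the EtOH mice. Levels are given in CPM, counts scaled to the library total and to TMM factors, and differences as log2 fold changes of EtOH over Control. Regional markers differed strongly between the groups. All 12 striatum markers were lower in the EtOH mice, with summed levels of 998 to 2399 CPM in the controls and 234 to 303 CPM in the EtOH mice. Of 10 hippocampus markers, 7 passed the test as higher in the EtOH mice, with summed levels of 298 to 406 CPM against 509 to 561 CPM. Cortical neuron markers were present in every mouse (summed levels of 4902 to 6244 CPM and 4525 to 5210 CPM), and of 12 markers 4 passed as higher and 5 as lower in the EtOH mice. Drinking history and the regions contained in the tissue pieces therefore cannot be told apart for any gene below. In bulk tissue, fewer cells of a type and less RNA per cell cannot be told apart either.

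Per length of exon, the 9 transcripts covered a wide range of levels. These levels are in TPM, computed from the counts per exon length of each gene and scaled to the same total in every mouse. Mat2a was the most abundant, at 244 ± 14.9 TPM in the Control mice (SD, n = 7), a level above that of 96.7% of detected genes. It was followed by Mthfd1 (43.2 ± 2.80 TPM), Shmt2 (40.3 ± 2.19 TPM) and Ahcy (30.9 ± 3.41 TPM). Cbs (15.6 ± 1.35 TPM), Mtr (12.6 ± 1.93 TPM) and Mthfd2 (10.6 ± 0.495 TPM) formed a middle group. Shmt1 (2.80 ± 0.781 TPM) and Tyms (1.37 ± 0.295 TPM) were the least abundant. The ranges over Control mice overlapped between the neighbours Mthfd1 and Shmt2, Cbs and Mtr, and Mtr and Mthfd2, and were separate between the other neighbours. The order of the means was the same in the EtOH mice. With the longest annotated transcript as the length of a gene, Mthfd2 (12.6 TPM) stood above Mtr (11.9 TPM), and the order was otherwise kept.

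**Figure D1:**
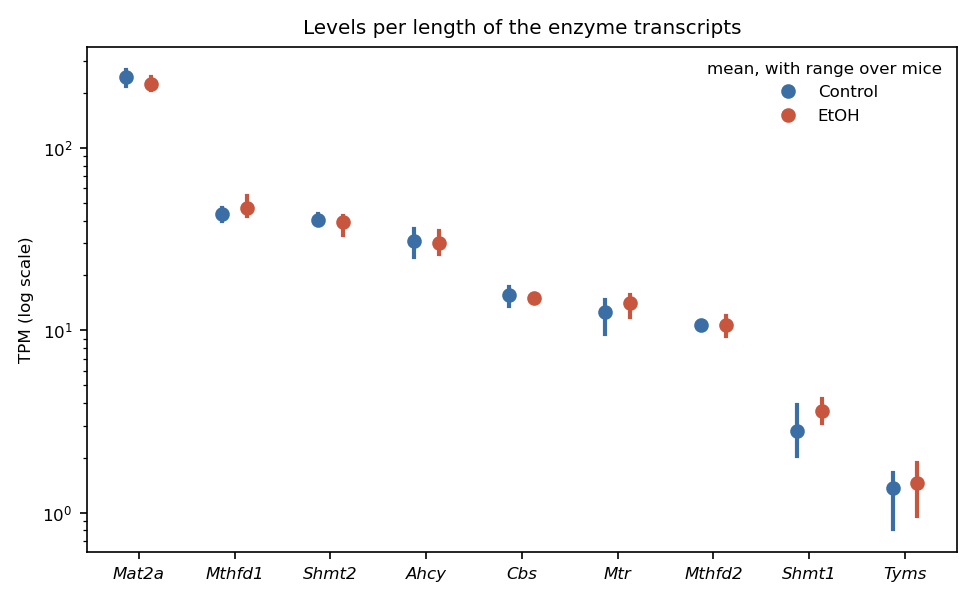
Level of each enzyme transcript per length of exon, in TPM on a log scale, for Control (7 mice, blue) and EtOH (5 mice, red). Points are group means and vertical lines run from the lowest to the highest mouse. Mat2a stands apart at the top (244 TPM in Control) and Tyms at the bottom (1.37 TPM), and the order of the means is the same in both groups.

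Of all 16059 genes tested, 23.7% passed the test (edgeR quasi-likelihood test, Benjamini-Hochberg adjusted p under 0.05), 12.1% as higher and 11.6% as lower in EtOH mice. A further condition of a log2 fold change above 0.5 in size left 8.29%, with 4.2% higher and 4.09% lower. Of the 9 enzymes, 0 passed in either direction. At an unadjusted p under 0.05, the count was 1 of the 9 (Mat2a), against 36.5% of all genes. DESeq2 passed 1 of the 9 (Mat2a) and limma voom passed 0. Between the groups, 0 of the 9 had values that did not overlap, against 9.81% of all genes (4.84% higher and 4.96% lower). The median log2 fold change of the 9 was -0.03, with 4 above 0 and 5 below. Its median size was 0.08, beside 0.15 over all genes tested.

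**Figure D2:**
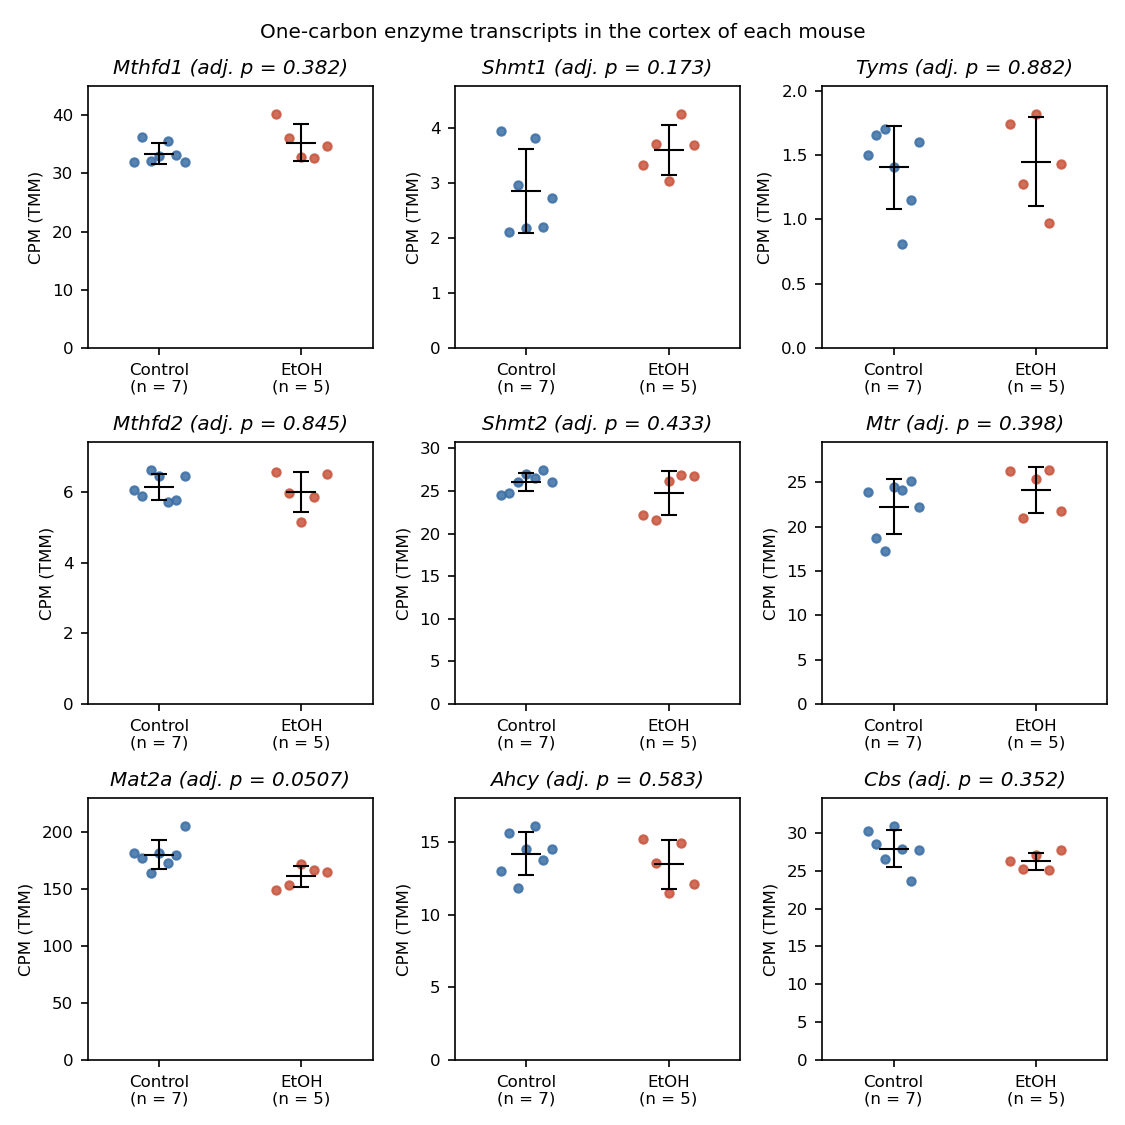
Level of each enzyme transcript in each mouse, in CPM after TMM scaling, with Control in blue (7 mice) and EtOH in red (5 mice). Each axis starts at 0, horizontal bars are means and vertical bars are 1 SD, and the adjusted p of the edgeR test stands above each panel. The groups overlap in all 9 panels, and the 5 EtOH mice lie below the Control median for Mat2a and Cbs and above it for Shmt1.

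In the cytosol, Mthfd1, Shmt1 and Tyms did not pass the test. Mthfd1 (chr12:76301984-76366588, plus strand; this and later positions are from the GRCm39 build) encodes the C1-tetrahydrofolate synthase, which interconverts the formyl, methenyl and methylene forms of the carrier. Its level in the Control mice was lowest at 31.9, median 32.9 and highest at 36.3 CPM. The EtOH mice were at 40.2, 36.2, 32.8, 32.6 and 34.7 CPM. A single EtOH mouse, replicate 1, lay above every control, and the others were inside the Control range. The difference was 0.08 on the log2 scale (SE 0.06, 95% interval -0.05 to 0.21, adjusted p = 0.382).

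Shmt1 (chr11:60661185-60708167, minus strand) encodes the cytosolic serine hydroxymethyltransferase, which passes a carbon from serine to tetrahydrofolate. Control mice ran from 2.11 through a median of 2.73 to 3.94 CPM, and EtOH mice were at 3.31, 3.70, 3.04, 4.25 and 3.68 CPM. The 5 EtOH mice all lay above the Control median, but Control replicates 1 and 5 were as high as they were. It had the largest difference of the 9 (log2 fold change 0.33, SE 0.17, 95% interval -0.03 to 0.69, adjusted p = 0.173). With 69 to 156 counts a mouse, the interval reaches past 0.5, the size used for a call.

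Tyms (chr5:30263198-30278633, minus strand) encodes thymidylate synthase, which uses methylene-tetrahydrofolate to make the thymine nucleotide of DNA. It had 32 to 75 counts a mouse, the fewest of the 9. Control mice ran from 0.806 through a median of 1.503 to 1.70 CPM, and EtOH mice were at 1.74, 1.28, 1.82, 0.971 and 1.43 CPM. The groups covered nearly the same range, with a log2 fold change of 0.05 (SE 0.21, 95% interval -0.40 to 0.51, adjusted p = 0.882). Its sign turned when certain single mice were left out. Proliferation markers, which mark the dividing cells in which this enzyme is abundant, had a summed level of 45.9 to 51.5 CPM in Control and 36.7 to 46.6 CPM in EtOH mice. All 8 had log2 fold changes below 0, and 3 of them passed the test.

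In mitochondria, Shmt2 and Mthfd2 did not pass the test either. Shmt2 (chr10:127352266-127358323, minus strand), the mitochondrial serine hydroxymethyltransferase, ran from 24.5 through a median of 26.1 to 27.5 CPM in Control mice. The EtOH mice were at 22.2, 21.7, 26.1, 26.9 and 26.8 CPM. EtOH replicates 1 and 2 were lower than every control, while the other 3 were inside the Control range. On the log2 scale the difference was -0.08 (SE 0.07, 95% interval -0.22 to 0.06, adjusted p = 0.433).

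Mthfd2 (chr6:83282673-83302890, minus strand) encodes the mitochondrial methylene-tetrahydrofolate dehydrogenase and cyclohydrolase, an enzyme known for its high level in embryonic and tumour cells. Control mice ran from 5.72 through a median of 6.07 to 6.63 CPM, and EtOH mice were at 6.56, 5.97, 5.16, 5.86 and 6.51 CPM. The groups lay on top of each other except for EtOH replicate 3, the lowest mouse. The log2 fold change was -0.03 (SE 0.09, 95% interval -0.22 to 0.16, adjusted p = 0.845). Without EtOH replicate 3 it was 0.02.

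In the methionine cycle, Mtr (chr13:12197598-12273090, minus strand) encodes methionine synthase, the cobalamin-dependent enzyme that joins the folate and methionine cycles. Control mice ran from 17.2 through a median of 23.9 to 25.2 CPM, and EtOH mice were at 26.3, 21.0, 25.4, 26.4 and 21.8 CPM. Of the EtOH mice, 3 lay above every control and the other 2 were within the Control range. The log2 fold change was 0.12 (SE 0.10, 95% interval -0.09 to 0.32, adjusted p = 0.398).

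Mat2a (chr6:72409779-72416684, minus strand) encodes the catalytic subunit of the methionine adenosyltransferase of tissues other than liver, which makes S-adenosylmethionine. The Control mice were lowest at 164, median 179.6 and highest at 205 CPM. The EtOH mice were at 149.5, 154, 172, 167 and 165 CPM. All 5 EtOH mice lay below the Control median, and 2 of them below the lowest control, while the other 3 lay above Control replicate 3 and below the remaining controls. Group means were 180.3 ± 12.7 CPM (SD, n = 7) in Control and 161 ± 9.37 CPM (SD, n = 5) in EtOH mice. The log2 fold change was -0.16 (SE 0.06, 95% interval -0.28 to -0.04), with an unadjusted p of 0.0121 and an adjusted p of 0.0507 in edgeR's quasi-likelihood test. Of all genes tested, 23.9% had a smaller p.

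The position of Mat2a against the threshold depended on the analysis. It passed in 6 of 19 alternative analyses, each time as lower. These were DESeq2 (adjusted p = 0.0337), upper quartile scaling in edgeR (0.0421), a filter of at least 10 counts in every mouse (0.0498), and the edgeR fits without Control replicate 3 (0.0332), without Control replicate 5 (0.0299) or without EtOH replicate 3 (0.0423). Over all 19, the log2 fold change stayed between -0.18 and -0.12 and the edgeR, DESeq2 or limma voom adjusted p between 0.0299 and 0.201. Control replicate 7 had the highest Mat2a level and, of its group, the lowest sums of striatum (998 CPM), hippocampus (298 CPM) and choroid plexus markers (7.47 CPM) and the highest sums of oligodendrocyte (5952 CPM), astrocyte (4250.3 CPM) and endothelial markers (274 CPM). Whether the striatal, oligodendrocyte or microglial content moves Mat2a was not tested. Oligodendrocyte markers summed to 4483 to 5952 CPM in Control and 3005 to 5372 CPM in EtOH mice (8 of 10 passed as lower), and microglia markers to 350.4 to 387 CPM and 295 to 320.5 CPM (5 of 9 passed as lower). All 10 and all 9 had log2 fold changes below 0.

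Mat2a mRNA is known for hairpins in its 3' untranslated region that the methyltransferase METTL16 binds and methylates, through which splicing and stability of the transcript respond to the supply of S-adenosylmethionine. The sites are shown because they set this transcript apart from the other 8 enzymes. The letters TACAGAGAA and TACAGAAAA, the METTL16 type of motif, were searched on the mRNA strand only, since the element acts in RNA. Mat2a-201, the canonical transcript of 2883 bases in Gencode vM39, holds 6 matches, all in the 3' untranslated region. Each is given with 10 bases on either side, read 5' to 3' in DNA letters, with the motif in capitals and its first position counted from the start of the transcript.
Mat2a site 1, position 1429: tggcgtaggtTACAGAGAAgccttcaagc
Mat2a site 2, position 2213: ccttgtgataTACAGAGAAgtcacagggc
Mat2a site 3, position 2392: ctggtgtagcTACAGAGAAaccagcttcc
Mat2a site 4, position 2507: atggcgtaagTACAGAGAAgccatcacct
Mat2a site 5, position 2618: caaggtgtccTACAGAAAAaccttgggtt
Mat2a site 6, position 2726: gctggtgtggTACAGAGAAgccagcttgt

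The motif does not overlap itself in any of the 6 sites. At least 1 match was held by 9.46% of the canonical transcripts of the 14570 tested genes that could be searched, and Mat2a was the only gene with as many as 6. The canonical transcripts of the other 8 enzymes held 0 matches. A match is a description of letters, and the counts of whole genes used here do not resolve the splice forms of Mat2a. Mettl16 itself had a log2 fold change of 0.07 (95% interval -0.10 to 0.25, adjusted p = 0.549), and Mat2b, the regulatory subunit of the enzyme, of 0.06 (95% interval -0.06 to 0.17, adjusted p = 0.496).

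Over the 12 mice, the genes whose log2 CPM profile, centred on the mean of each gene, lay nearest that of Mat2a were Mro (root mean square difference 0.0592), Nos3 (0.063) and Khsrp (0.0653). None of these 3 passed the test (log2 fold changes -0.12, -0.18 and -0.08, adjusted p = 0.213, 0.156 and 0.259). The choice used the same 12 mice, group difference included, so fold changes near that of Mat2a follow from the choice.

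Ahcy (chr2:154901230-154916422, minus strand) encodes the hydrolase that removes S-adenosylhomocysteine, an inhibitor of methyltransferases. Control mice ran from 11.8 through a median of 14.5 to 16.1 CPM, and EtOH mice were at 15.2, 13.6, 11.5, 15.0 and 12.2 CPM. The groups overlapped over almost the whole range, at a log2 fold change of -0.08 (SE 0.09, 95% interval -0.27 to 0.12, adjusted p = 0.583).

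Cbs (chr17:31827868-31856646, minus strand) encodes cystathionine beta-synthase, which commits homocysteine to transsulfuration and in the brain is found mainly in astrocytes. Control mice ran from 23.6 through a median of 27.9 to 30.9 CPM. The EtOH mice were at 26.3, 25.2, 27.0, 25.1 and 27.7 CPM, all below the Control median and all inside the Control range. The log2 fold change was -0.09 (SE 0.07, 95% interval -0.23 to 0.05, adjusted p = 0.352). Astrocyte markers summed to 3706 to 4250 CPM in Control and 4000 to 4554 CPM in EtOH mice, and of 10 markers 4 passed as higher and 1 as lower.

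**Figure D3:**
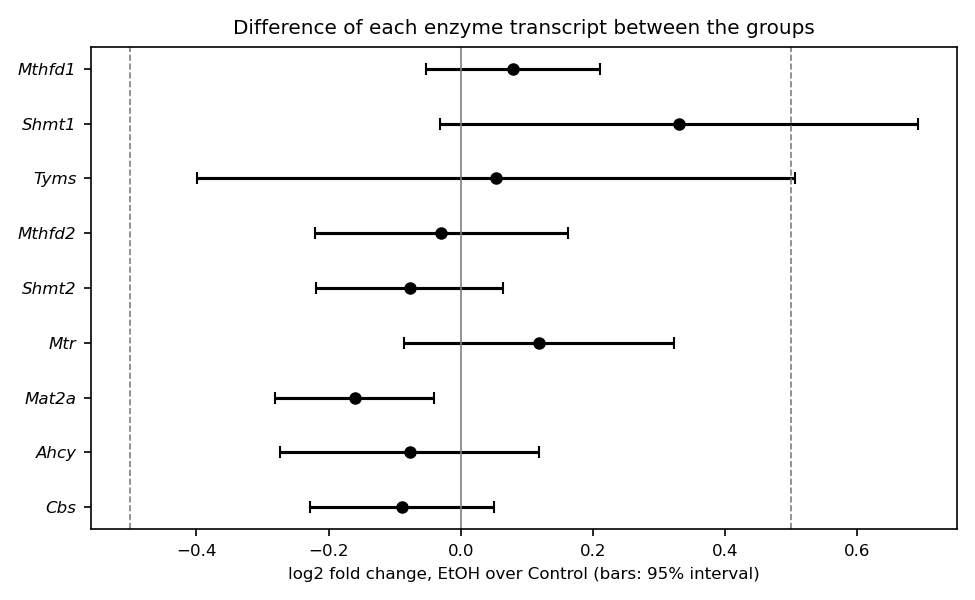
Log2 fold change of EtOH over Control for each enzyme transcript, with its 95% interval as a horizontal bar. Dashed lines mark 0.5 in either direction. The interval includes 0 for 8 of 9 enzymes, Mat2a being the exception, and lies within the dashed lines for 7 of 9, Shmt1 and Tyms being the exceptions.

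The intervals bound what these mice could show. For 7 of the 9 enzymes the 95% interval of the log2 fold change lay within 0.5 in either direction, against 65.3% of all genes, and Shmt1 and Tyms reached beyond it. Standard errors ran from 0.06 for Mat2a to 0.21 for Tyms, and the median over all genes was 0.09. Exons of Mthfd1, Shmt1, Shmt2 and Mat2a share bases with genes on the opposite strand, Mat2a with Ggcx and Particl over 1442 bases. Without a stated strand setting, reads from such partners cannot be told apart.

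Ratios of counts within a mouse need no scaling between libraries, and 4 were tested by exact permutation, two-sided, over the 792 splits of the mice into groups of these sizes. The smallest p such a test can give is 0.00126. Shmt2 to Shmt1, the mitochondrial against the cytosolic enzyme of the same step, ran from 6.21 through a median of 9.56 to 12.5 in Control mice. In EtOH mice it was 6.69, 5.85, 8.59, 6.33 and 7.28. All 5 EtOH mice lay below the Control median, but Control replicates 1 and 5 lay among them. The difference of the mean log2 ratio was -0.45 (exact permutation p = 0.053, adjusted over the 4 ratios 0.212).

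Mthfd2 to Mthfd1, the other pair of mitochondrial and cytosolic enzymes, had medians of 0.190 in Control and 0.165 in EtOH mice. Again all 5 EtOH mice lay below the Control median, within the Control range but for replicate 3 at 0.157. The log2 difference was -0.11 (exact permutation p = 0.187, adjusted 0.249). Cbs to Mtr, the routes by which homocysteine leaves or returns to the cycle, had medians of 1.26 and 1.06 and a log2 difference of -0.21 (exact permutation p = 0.134, adjusted 0.249). Mat2a to Ahcy, the making of the methyl donor against the removal of its product, had medians of 13.04 and 11.3 and a log2 difference of -0.08 (exact permutation p = 0.491, adjusted 0.491). None of the 4 ratios passed the test, and the values of the groups overlapped in each.

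**Figure D4:**
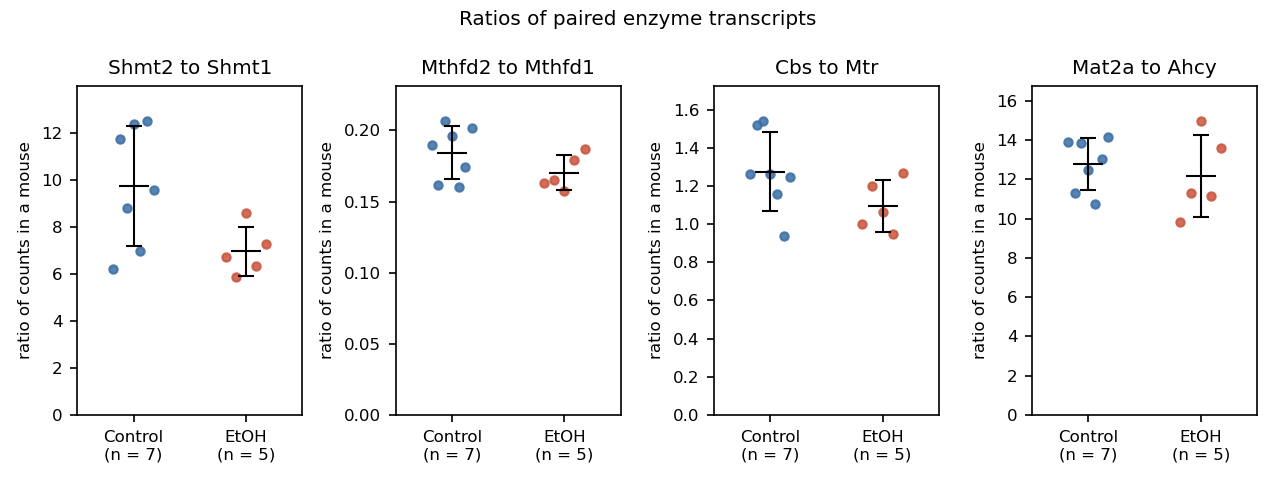
Ratio of the counts of paired enzymes within each mouse, with Control in blue (7 mice) and EtOH in red (5 mice). Bars are means and 1 SD. The 5 EtOH mice lie below the Control median for Shmt2 to Shmt1 and for Mthfd2 to Mthfd1, and the groups overlap in all 4 panels.

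Around these 9 enzymes, 67 further genes of folate, methionine, cobalamin, cysteine, serine, thymidylate and polyamine metabolism were listed, and 62 were tested. Of these, 5 passed as higher and 8 as lower (21% in all, against the 23.7% of all genes). A log2 fold change above 0.5 in size left 1 as higher (Tk1) and 0 as lower. The median log2 fold change of the 62 was 0.04. The share that passed was thus near that of all genes. In 1 of the 62 all EtOH values lay above the controls and in 4 below, beside 4.84% and 4.96% of all genes. Of the genes named below, those next to a step of the 9 enzymes and Tk1 were set by rule. Gldc, Gamt, Mmachc, Mmadhc, Abcd4, Cdo1, Suox, Psph, Srr, Mri1, Srm, Folr1, Folr2, Ftcd, Mat1a and Bhmt were chosen after their values had been seen.

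The supply of folate and its cytosolic cycle gave 0 passes among the genes above the filter, 5 tested genes of folate uptake and retention and 7 tested genes of the cytosolic folate cycle, in edgeR, DESeq2 and limma voom alike. At an unadjusted p under 0.05, edgeR gave 0 of these 12 and DESeq2 and limma voom 1 each, beside 36.5% of all genes in edgeR. Aldh1l1, a formyl-tetrahydrofolate dehydrogenase of astrocytes, had a log2 fold change of -0.04 (adjusted p = 0.684). Folr1, a folate receptor of the choroid plexus, was below the filter, with 2 to 9 counts in the Control mice and 78, 6, 187, 72 and 2 counts in EtOH replicates 1 to 5. In the fit without that filter, Folr1 passed as higher (log2 fold change 3.48, SE 0.64, edgeR adjusted p = 0.000470). EtOH replicates 1, 3 and 4, where it was high, also had the highest sums of choroid plexus markers (121, 989.6 and 278 CPM, against 7.47 to 21.5 CPM in the Control mice), a list that includes Folr1. Its part in the Folr1 counts was not tested.

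Among 10 genes of the mitochondrial folate cycle, 1 passed (10%, beside 23.7% of all genes). Gldc, the glycine decarboxylase of the cleavage system that feeds carbons from glycine to tetrahydrofolate, was at 26.2 to 33.0 CPM (median 28.9) in Control mice and at 37.7, 37.8, 35.2, 32.1 and 38.2 CPM in EtOH mice. All EtOH mice but replicate 4 exceeded every control. Gldc rose by 0.30 on the log2 scale (SE 0.07, adjusted p = 0.00376) and passed in all 19 alternatives. Astrocytes are its main source in brain, and the part of the astrocyte markers given with Cbs was not tested. Mthfd1l (0.12, adjusted p = 0.611) and Mthfd2l (0.01, adjusted p = 0.974), which extend or duplicate the mitochondrial steps, did not pass.

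Of 11 tested methionine cycle genes, 1 passed as higher and 1 as lower (18.2% in all, beside 23.7% of all genes). Ahcyl2, a relative of Ahcy that is known for a part in ion transport and not for hydrolysis, was at 135.9 to 151 CPM (median 142) in Control mice. The EtOH mice were at 180.4, 179.7, 191, 164 and 169.8 CPM, all above every control. Ahcyl2 rose by 0.30 on the log2 scale (SE 0.05, adjusted p = 0.000256). Its close relative Ahcyl1 had -0.10 (95% interval -0.21 to 0.01, adjusted p = 0.178), with 0 of 5 EtOH mice above the Control median.

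Gamt, which uses S-adenosylmethionine to make creatine, was at 9.61 to 12.03 CPM in Control and at 8.46, 8.24, 8.38, 8.16 and 9.24 CPM in EtOH mice, with no overlap. Gamt fell by 0.39 on the log2 scale (SE 0.08, adjusted p = 0.00177). It is abundant in oligodendrocytes, whose markers were lower, and it shares 1382 exon bases with Ndufs7 on the opposite strand. The part of either was not tested. Mtrr, which reactivates methionine synthase, had 0.14 (adjusted p = 0.320). Mat1a, the liver form of the enzyme, was below the filter, with 0 to 4 counts in Control and 6 to 10 counts in EtOH mice. In the fit without the filter, Mat1a passed as higher with a log2 fold change of 2.36 (SE 0.72, edgeR adjusted p = 0.0280), at counts so low that the size is poorly determined. Folr2, Ftcd and Bhmt, also below the filter, did not pass in that fit (edgeR adjusted p = 0.394, 0.697 and 0.874). Of all 23748 genes in it, 1882 passed as higher and 1733 as lower.

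Cobalamin is the cofactor of methionine synthase. Of 6 genes of cobalamin handling, 2 passed as lower and 0 as higher, beside 11.6% and 12.1% of all genes. Log2 fold changes were below 0 for 3 of the 6 and above 0 for 3, with Abcd4 at 0.22 (adjusted p = 0.0547). Mmachc, which processes newly taken up cobalamin, fell by 0.31 on the log2 scale (17.0 to 13.7 CPM, adjusted p = 0.0198). Mmadhc, which directs it to its enzymes, fell by 0.21 (25.7 to 22.2 CPM, adjusted p = 0.0293). These were less stable than the genes above. Mmachc missed the threshold without EtOH replicate 1, 4 or 5 (edgeR adjusted p up to 0.0584), and Mmadhc without Control replicate 2, 3 or 4 or EtOH replicate 1, 3 or 5 (up to 0.0724).

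Beyond Cbs, transsulfuration and cysteine breakdown had 2 of 6 genes that passed as lower and 0 as higher, again beside 11.6% and 12.1% of all genes. Cth, the next enzyme after Cbs, had 0.29 (95% interval -0.07 to 0.65, adjusted p = 0.226). Cdo1, which oxidises cysteine on the way to taurine, was at 21.5 to 32.8 CPM in Control and at 19.5, 17.8, 19.1, 18.9 and 17.5 CPM in EtOH mice, with no overlap. Cdo1 fell by 0.45 on the log2 scale (SE 0.09, adjusted p = 0.00139). Suox, the sulfite oxidase, fell by 0.25 (11.5 to 9.66 CPM, adjusted p = 0.0331), and missed the threshold without Control replicate 4 or 7 or EtOH replicate 2, 4 or 5 (edgeR adjusted p up to 0.0698) and in the fit without the filter on low counts (0.0579).

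Serine is the main carbon donor of Shmt1 and Shmt2, and of the 4 genes of its synthesis and racemisation 2 passed as lower and 1 as higher, beside 11.6% and 12.1% of all genes. Phgdh, the first enzyme, was at 41.9 to 51.4 CPM in Control and 42.3 to 48.9 CPM in EtOH mice, with a log2 fold change of -0.05 (95% interval -0.17 to 0.08, adjusted p = 0.604). Psat1, the second, was at 102 to 114 CPM (median 110.0) in Control and at 81.6, 95.3, 84.1, 80.9 and 86.1 CPM in EtOH mice. Every EtOH mouse was below every control. Psat1 fell by 0.35 on the log2 scale (SE 0.05, 95% interval -0.46 to -0.24, adjusted p = 0.000111).

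Psph, the last enzyme of the route, was at 11.8 to 14.6 CPM in Control and at 10.2, 11.5, 8.80, 10.3 and 11.8 CPM in EtOH mice. EtOH replicate 5 came just below the lowest control. Psph fell by 0.31 on the log2 scale (SE 0.09, adjusted p = 0.0160). Srr, the serine racemase that makes the NMDA receptor ligand D-serine, was at 47.9 to 62.1 CPM in Control and at 64.3, 61.6, 62.4, 65.7 and 61.0 CPM in EtOH mice. Only Control replicate 5 reached their level. Srr rose by 0.23 (SE 0.06, adjusted p = 0.0131). Psat1, Psph and Srr passed in all 19 alternatives. Srr shares 2429 exon bases with genes on the opposite strand, and Psph 465. Whether regional or cell type content moves these 3 genes was not tested.

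Of 5 genes of thymidylate supply, Tk1 passed (20%, beside 23.7% of all genes). Tk1, the cytosolic thymidine kinase of dividing cells, was at 0.674 to 1.25 CPM in Control and at 1.55, 1.37, 1.04, 1.58 and 1.76 CPM in EtOH mice, where replicate 3 fell inside the Control range. Tk1 rose by 0.58 on the log2 scale (SE 0.21, adjusted p = 0.0493), at a level below 2 CPM. It shares 751 exon bases with Afmid and Syngr2 on the opposite strand, whose part was not tested. It passed in 8 of 19 alternatives and missed the threshold in 9 of the 12 fits that left out 1 mouse (all but those without Control replicate 5 or 7 or EtOH replicate 3), where the edgeR adjusted p reached 0.123. Of the proliferation markers given with Tyms, 3 of 8 passed as lower in the EtOH mice and 0 as higher.

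Methionine salvage and polyamine synthesis also use S-adenosylmethionine. Of 8 genes, 1 passed as higher and 1 as lower (25% in all, beside 23.7% of all genes). Amd1, the decarboxylase at the entry to polyamine synthesis, had -0.02 (adjusted p = 0.829). Srm, the spermidine synthase, fell by 0.21 on the log2 scale (54.5 to 47.0 CPM, adjusted p = 0.0290), and missed the threshold without Control replicate 3 or 4 or EtOH replicate 1, 2 or 3 (edgeR adjusted p up to 0.0902). Mri1, an isomerase of methionine salvage, rose by 0.30 (13.9 to 17.1 CPM, adjusted p = 0.0445), and missed it in 8 of the 12 fits that left out 1 mouse (all but those without Control replicate 3, 5 or 6 or EtOH replicate 3), where the edgeR adjusted p reached 0.135.

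**Figure D5:**
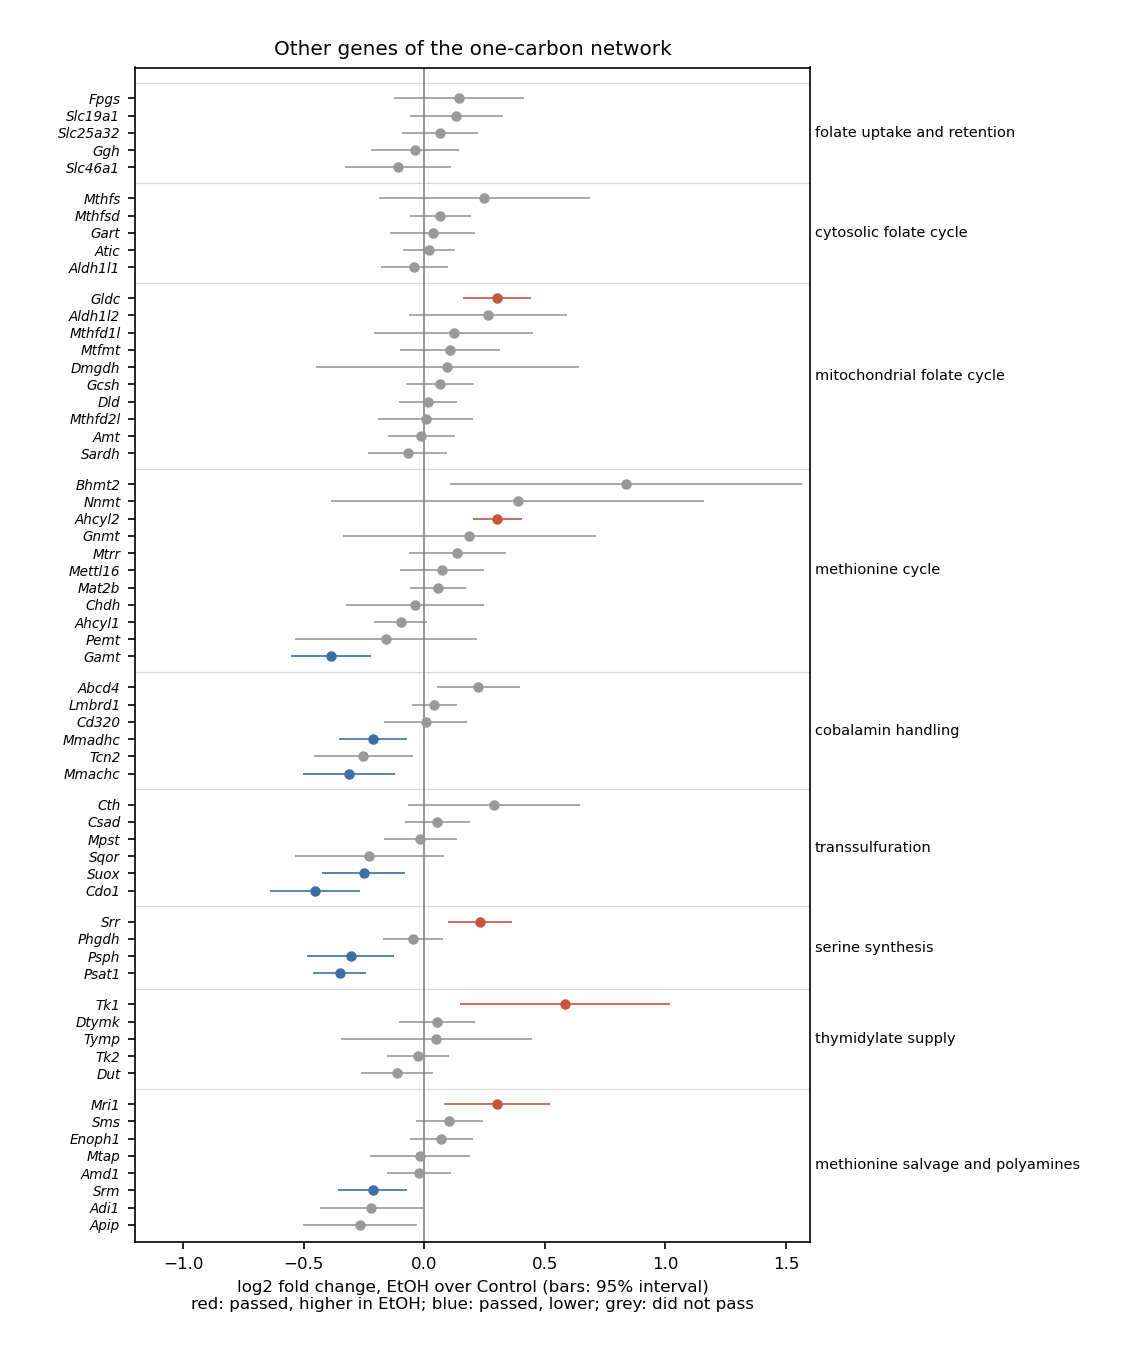
Log2 fold change of EtOH over Control, with 95% intervals, for 60 of the 62 tested genes around the 9 enzymes, grouped by metabolic step. Red marks the 5 genes that passed as higher, blue the 8 that passed as lower and grey those that did not pass. Folate uptake and the cytosolic folate cycle hold no coloured gene among those drawn, and serine synthesis holds 3 of 4. Of all genes tested, 23.7% passed.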

How the data were processed

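RNA of 12 mouse cortices (7 Control, 5 EtOH) was extracted and sequenced by BGI. The authors checked reads with FastQC 0.11.9, aligned them to GRCm39 with STAR and a Gencode annotation, obtained gene counts from featureCounts and ran their own comparison in DESeq2. The deposited table holds expected counts per gene symbol, without normalization, and 61 symbols have values that are not whole, none of them among the enzymes or listed genes. Strand and multi-mapping settings are not given in the sources used here. Depth was 31768079 to 42183031 counts a mouse.

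Counts were rounded, filtered with filterByExpr and scaled with TMM, and 16059 genes were tested over all 12 mice by the quasi-likelihood method of edgeR 4.0.16 (in R 4.3.3), p-values being adjusted after Benjamini and Hochberg. DESeq2 1.42.0 and voom of limma 3.58.1 served as alternatives. Genes passed at an adjusted p under 0.05, and calls also needed a log2 fold change above 0.5 in size. Adjusted p-values are from this test unless another is named. Tested on simulated data for this comparison (15904 genes), 175 of 200 genes changed by 1 on the log2 scale were recovered with 6 false passes.

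Lengths and positions came from Gencode vM39 on GRCm39, newer than the authors' annotation, in which 30860 of 33024 symbols matched. All 9 enzymes are named. Of the wider list, genes with a call and 14 genes next to a step of the 9 enzymes are named by rule, as are the 3 profiles nearest the enzyme with the smallest p. Some genes that the rule selects are left out here but stay in the counts. The enzymes and lists were chosen with earlier results of these data known. No label names separate litters or cages, so p-values measure the spread between these mice. Alternatives changed the test, the scaling, the filter, the block, the minimum fold change, the gene length or left out 1 mouse.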

Additional observations from a re-analysis of the deposited data

Results flagged for a closer look

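Of 78 sets of values examined, 6 held a mouse set apart from the rest of its group by Dixon's criterion, where chance gives about 1 in 20 sets (3.9). Among the 9 enzymes, Mat2a in Control replicate 7 was the highest of its group at 205 CPM, with the next control at 181.5 CPM. Without that mouse, the log2 fold change of Mat2a was -0.13 (edgeR adjusted p = 0.0908). Around the 9 enzymes, Cdo1 was highest in Control replicate 2 (32.8 CPM, next 25.8), Cth lowest in Control replicate 5 (1.32 CPM, next 2.14) and Gamt highest in EtOH replicate 5 (9.24 CPM, next 8.46). Total counts were highest in Control replicate 5 (40690226) and EtOH replicate 1 (42183031).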

How the results depend on the processing

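Of the 9 enzymes, the count that passed as lower was 0, and 1 (Mat2a) with DESeq2, with upper quartile factors, with at least 10 counts in every mouse, and between 0 and 1 when 1 mouse was left out. The count that passed as higher was 0 in each of these. Of the wider list, leaving out 1 mouse gave 3 to 6 higher (3 without Control replicate 1, 2 or 4 or EtOH replicate 1, 4 or 5) and 5 to 10 lower (5 without Control replicate 4 or EtOH replicate 1 or 5), and requiring a log2 fold change above 0.5 left 1 and 0. Over all genes that requirement left 674 of 1947 higher and 657 of 1863 lower, and leaving out 1 mouse gave 1574 to 2284 and 1483 to 2388. Log2 fold changes near 0 turned sign when 1 mouse was left out, from -0.0609 to 0.0199 for Mthfd2, -0.0592 to 0.164 for Tyms, -0.0847 to 0.00887 for Aldh1l1, -0.0384 to 0.0370 for Mthfd2l and -0.0655 to 0.00667 for Amd1. With the longest transcript as length, control levels were 12.6 TPM for Mthfd2, 25.0 for Ahcy and 18.9 for Cbs. The 4 ratios stayed on their side of the threshold throughout. The cause of these moves was not tested.

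Replicate numbers did not pair the mice. Same-numbered mice deviated with a correlation of -0.108 to 0.0182 over 5 pairs, and 1 of 5 controls correlated best with its own number. With the replicate block, 0 of the 9 enzymes passed (Mat2a log2 fold change -0.12, adjusted p = 0.201), 5 higher and 7 lower of the wider list did, and 1839 and 1649 of all genes. Under that block Mmadhc (adjusted p = 0.0563), Suox (0.121) and Tk1 (0.0617) no longer passed. Mthfd1l moved from 0.12 to 0.31 on the log2 scale with the block and did not pass (edgeR adjusted p = 0.0817). Tyms and Shmt1 had the fewest counts and the widest intervals of the 9 enzymes.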
